A study of Mus musculus with 27 samples.

Results

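In mK4 cells without the transcription factor Runx1, 9427 chromatin regions gained accessibility, and 5623 of them (59.6%) stood alone and held no Runx1 or Runx2 peak. These are called isolated opening regions here. A region belonged to them when it was in the deposited list of regions that gained accessibility by ATAC-seq in Runx1KO cells, overlapped no peak of the 3 deposited ChIP-seq lists by even 1 bp, and had no other region of the same opening list within 12.5 kb on its chromosome. The files hold 55649 accessible regions in all. The other opening regions were 3347 that lay within 12.5 kb of another one, called clustered here, and 457 that overlapped a Runx peak.

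The mK4 line is a mouse cell line of kidney metanephric mesenchyme, the tissue from which nephrons form. Control cells were the parental line (WT), Runx1KO cells had lost the exon of Runx1 that carries the start codon used in mK4, and ZebDKO cells had lost the start codon exons of both Zeb1 and Zeb2, all by CRISPR-Cas9 and clone picking. RNA-seq was made from 3 libraries of each of the 3 genotypes. ATAC-seq was made from 3 libraries each of control and Runx1KO cells, and ChIP-seq with Runx1 and Runx2 antibodies from 3 libraries each of the same 2 genotypes, with lists analysed for Runx1 in control and for Runx2 in both. All cells grew in medium with serum until nearly confluent. Several clones were obtained per knockout but how many were sequenced is not stated, so clone and genotype cannot be told apart, and p-values measure the spread between cultures only. The samples used here include no ATAC-seq of ZebDKO cells, so opening was read in Runx1KO cells alone. By ATAC with PCR, the authors reported that sites near Grhl2 opened in Runx1KO cells had gained accessibility in ZebDKO cells too.

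As background, ATAC-seq cuts DNA with a transposase wherever it is not wrapped in nucleosomes, so its peaks mark promoters, enhancers and other sites held open by proteins. Runx proteins bind DNA through the Runt domain and can activate or repress. Zeb1 and Zeb2 are zinc finger repressors that bind E-boxes of the form CAGGTA or CAGGTG and hold epithelial genes down in mesenchymal cells. AP-1 is the dimer of Fos and Jun proteins, Grainyhead-like factors such as Grhl2 keep epithelial enhancers open, and Ctcf anchors chromatin loops.

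The sequences below are the central 200 bases, plus strand of mm9, of regions that carry the results. For Zeb, AP-1, Grhl and Ctcf, 2 isolated opening regions with a match and a large deposited log2 fold change are shown. They are not the highest 2 for every motif, and each region is shown for 1 motif only. The Sgsh region (4.88), shown for Zeb, also held an AP-1 match. The region at the start of Tekt5 (3.02) held a Ctcf match and is not shown, although Ctcf 2 had 2.64. Added to these are 3 regions at the start of epithelial or surface genes described further on. Capitals mark matches on either strand to the Zeb, AP-1, Grhl or Ctcf motif, and a run of 11 capitals is a Zeb match that shares bases with an AP-1 match.
Zeb 1, chr11:119212039-119212238, intron of Sgsh: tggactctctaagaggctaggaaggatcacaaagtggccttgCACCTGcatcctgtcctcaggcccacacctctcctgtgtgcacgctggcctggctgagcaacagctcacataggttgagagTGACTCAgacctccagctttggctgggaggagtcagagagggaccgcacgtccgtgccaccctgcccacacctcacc
Zeb 2, chr9:121324884-121325083, intron of Trak1: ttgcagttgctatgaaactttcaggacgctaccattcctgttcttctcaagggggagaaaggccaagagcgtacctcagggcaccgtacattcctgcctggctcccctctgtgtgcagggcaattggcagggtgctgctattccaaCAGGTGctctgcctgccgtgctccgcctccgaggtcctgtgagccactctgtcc
AP-1 1, chr16:14319889-14320088, intergenic near Fopnl: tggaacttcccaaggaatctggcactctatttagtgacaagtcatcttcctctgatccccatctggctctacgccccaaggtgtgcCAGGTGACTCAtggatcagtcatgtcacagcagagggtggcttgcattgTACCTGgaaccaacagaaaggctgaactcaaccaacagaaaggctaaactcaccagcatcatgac
AP-1 2, chr4:102506506-102506705, intron of Sgip1: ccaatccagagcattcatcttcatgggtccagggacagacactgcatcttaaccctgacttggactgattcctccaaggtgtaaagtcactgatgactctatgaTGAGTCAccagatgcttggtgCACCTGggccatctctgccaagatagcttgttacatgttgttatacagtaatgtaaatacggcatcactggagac
Grhl 1, chr16:76500141-76500340, intergenic: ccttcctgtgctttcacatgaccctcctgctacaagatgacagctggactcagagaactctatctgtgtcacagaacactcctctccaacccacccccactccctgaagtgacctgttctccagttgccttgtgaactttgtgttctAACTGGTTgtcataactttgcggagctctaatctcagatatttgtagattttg
Grhl 2, chr16:16367533-16367732, intergenic near Dnm1l: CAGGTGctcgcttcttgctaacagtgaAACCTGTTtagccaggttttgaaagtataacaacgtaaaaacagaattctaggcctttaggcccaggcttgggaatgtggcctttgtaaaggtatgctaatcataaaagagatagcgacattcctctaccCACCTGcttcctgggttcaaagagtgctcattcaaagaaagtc
Ctcf 1, chr13:120167356-120167555, intron of Nnt: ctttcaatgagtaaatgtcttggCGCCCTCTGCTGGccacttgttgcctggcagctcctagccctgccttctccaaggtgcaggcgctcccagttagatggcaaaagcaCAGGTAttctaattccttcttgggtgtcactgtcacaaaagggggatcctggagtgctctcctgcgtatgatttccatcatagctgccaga
Ctcf 2, chr3:108261761-108261960, intron of 5330417C22Rik: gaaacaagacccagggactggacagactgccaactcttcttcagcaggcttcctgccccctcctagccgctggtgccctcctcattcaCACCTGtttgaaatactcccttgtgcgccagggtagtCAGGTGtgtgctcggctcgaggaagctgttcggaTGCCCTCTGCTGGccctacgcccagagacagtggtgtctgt
Start of Psca, chr15:74545046-74545245: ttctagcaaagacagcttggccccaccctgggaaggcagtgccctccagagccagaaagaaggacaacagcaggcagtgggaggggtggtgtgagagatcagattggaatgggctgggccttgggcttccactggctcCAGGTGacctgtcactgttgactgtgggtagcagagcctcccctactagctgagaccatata
Start of Itgb4, chr11:115836494-115836693: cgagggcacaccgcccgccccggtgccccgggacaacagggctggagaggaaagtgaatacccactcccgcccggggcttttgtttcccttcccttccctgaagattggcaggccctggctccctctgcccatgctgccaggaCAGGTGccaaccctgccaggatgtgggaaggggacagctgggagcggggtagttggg
Start of Lamb3, chr1:195127869-195128068: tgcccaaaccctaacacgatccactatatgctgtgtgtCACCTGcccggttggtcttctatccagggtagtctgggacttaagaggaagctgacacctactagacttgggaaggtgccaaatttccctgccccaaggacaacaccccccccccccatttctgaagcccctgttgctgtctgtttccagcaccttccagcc
Besides the pair chosen for it, a Zeb match stood in each of the other windows except Grhl 1. The AP-1 1 window holds the joined form, in which the last bases of the Zeb word open the AP-1 word.

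The isolated opening regions were short and lay mostly away from promoters. Their median width was 490 bp (215 to 2465 bp) and their median GC content 50.8%, close to the 51.2% of stable regions, which are the 26922 regions in the list of unchanged accessibility that overlap no Runx peak. Of the 5623 regions, 2905 (51.7%) were intergenic, 1952 (34.7%) lay in an intron, 185 (3.29%) in an exon and 581 (10.3%, Wilson 95% interval 9.56 to 11.2%) within 1 kb of an annotated transcription start. Intervals on shares of regions cover counting error only, since regions are not replicates. The share at starts was 9.04% among the 4183 isolated closing regions (lost accessibility in Runx1KO cells, no Runx peak, no other closing region within 12.5 kb), 11.8% among clustered opening regions and 18.8% among stable regions. The isolated opening regions lay at a median of 16455 bp from the nearest start, against 23753 bp for isolated closing and 13076 bp for stable regions, and 570 (10.1%) were over 100 kb from any start. The gene with the nearest start was at 1 TPM or more in control cells (mean of 3 libraries) for 63.9% of 5356 isolated opening regions whose gene had RNA values, against 70.1% for isolated closing and 70.8% for stable regions. For 27.3% that gene stayed under 1 TPM in all 9 libraries.

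Neighbours of other kinds lay at varied distances. The nearest stable region lay at a median of 8628 bp, and 16.3% of isolated opening regions had one within 2 kb. The nearest closing region lay at a median of 85989 bp. Runx peaks were absent from the regions by the rule, and the nearest peak lay at a median of 64518 bp for Runx1 in control cells, 29523 bp for Runx2 in control cells and 31514 bp for Runx2 in Runx1KO cells. A Runx peak of any list stood within 10 kb of 28.6% of isolated opening regions, against 22.6% of isolated closing and 30.2% of stable regions without a peak. The regions were spread over every chromosome with lists, from 6.69% of the accessible regions of chromosome 3 to 13.2% of those of chromosome 16. Isolation was a matter of degree: 1300 regions had their nearest opening neighbour at 12.5 to 25 kb and 1769 at over 100 kb (median 54600 bp). At the limit, chr7:30009859-30010218 was just inside at 12514 bp (deposited log2 fold change 1.19) and a pair on chromosome 11 was just outside at 12500 bp (2.14 and 3.20).

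The gain in accessibility, as deposited by the authors without values per replicate, had a median log2 fold change of 1.51 (quartiles 1.20 and 1.98, highest 4.88), against 1.72 in clustered opening regions and 1.42 in opening regions with a Runx peak. It was over 2, a 4-fold gain, in 24.5% of isolated and 35.7% of clustered opening regions. The accompanying unlabelled −log10 value reached that of 0.05 in 92.0% of isolated and 96.5% of clustered opening regions. These values define the list and are given as a description only.

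The Zeb motif was more frequent in isolated opening regions than in closing and stable ones. At least 1 match to CAGGTA or CAGGTG stood in the central 200 bp of 2906 of 5623 regions (51.7%, 50.4 to 53%), in 50.3% of clustered opening regions (48.6 to 52.0%), in 25% of stable regions (24.4 to 25.5%) and in 11.7% of isolated closing regions (10.8 to 12.7%). Over all 55649 accessible regions the share was 26.3%. At least 2 matches stood in 15.2% of isolated opening, 14.6% of clustered opening, 3.6% of stable and 0.861% of isolated closing regions. Where several matches stood together, neighbouring ones were a median of 43 bp apart (1147 pairs). Both spellings took part: CAGGTG stood in 38.8% of isolated opening, 18.3% of stable and 8.89% of isolated closing regions, and CAGGTA in 19.2%, 8.06% and 3.23%. In clustered opening regions they stood in 38.6% and 17.5%. The E-boxes CAGCTG and CATCTG, which differ from the Zeb word inside, stood in 15.7% and 15.9% of isolated opening and in 22% and 23.1% of isolated closing regions. Their shares were 16.4% and 17.0% in stable and 17.5% and 15.5% in clustered opening regions. CACGTG stood in 4.61% of isolated opening, 3.98% of stable and 3.32% of isolated closing regions, and CATATG in 2.06%, 2.37% and 3.78%. A match is a spelling in the genome, not a measured binding site, and Zeb binding was not measured in the files used here.

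**Figure D1:**
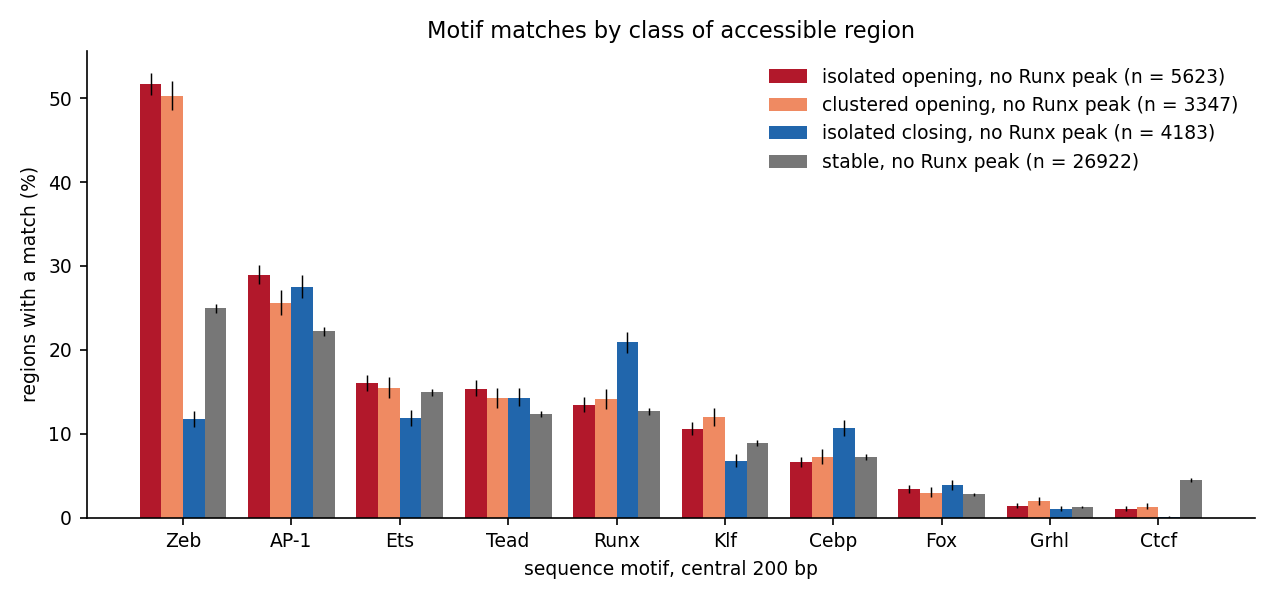
Share of regions with a motif match in the central 200 bp (percent, y axis) for 10 motifs (x axis) in 4 classes of accessible region without a Runx peak; bars are shares and lines are Wilson 95% intervals. The Zeb bars stand at 51.7% and 50.3% in the opening classes, 11.7% in isolated closing and 25% in stable regions, while the AP-1 bars range from 22.2 to 29.0%.

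The Zeb matches sat at the middle of the isolated opening regions. Per bin of 25 bp, a match had its middle there in 9.52% of regions on average over the central 100 bp and in 3.47% over the outer part of the window, which reached 500 bp from the middle on each side, a ratio of 2.75. In clustered opening regions they were 9.12% and 3.62%, a ratio of 2.52. In stable regions the same values were 3.78% and 3.32%, a nearly flat profile. In isolated closing regions they were 1.51% and 2.91%, a dip at the middle with a ratio of 0.520. AP-1 matches (TGACTCA or TGAGTCA) were concentrated at the middle in every class, with ratios of 11.4 in isolated opening, 9.09 in isolated closing and 8.99 in stable regions.

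**Figure D2:**
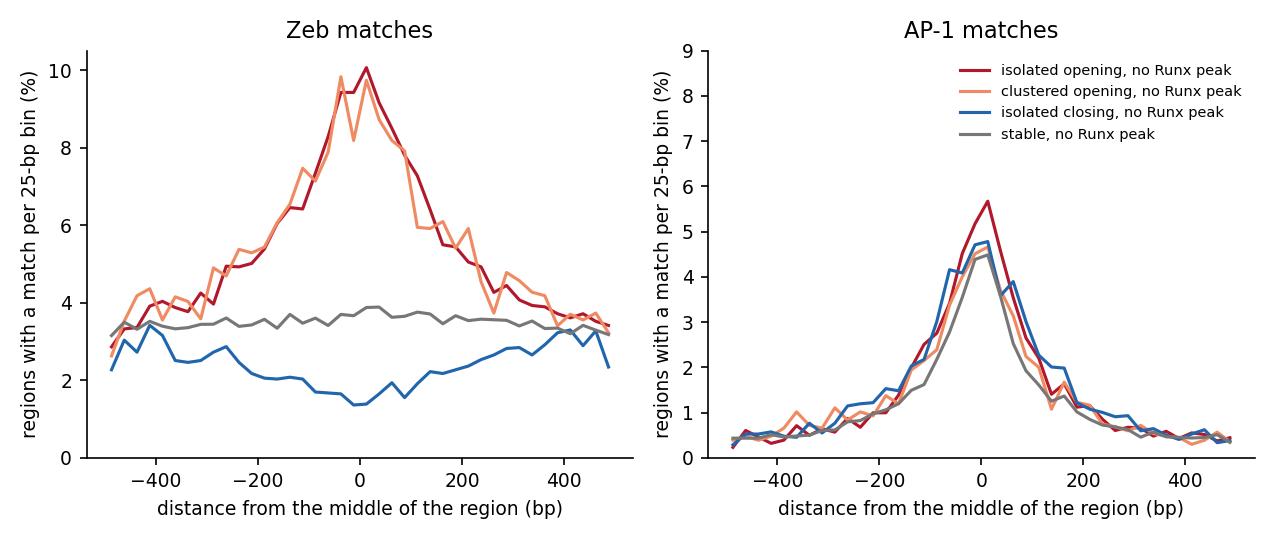
Share of regions with a Zeb match (left) or an AP-1 match (right) in each bin of 25 bp (percent, y axis) by distance from the middle of the region (bp, x axis), for the same 4 classes. The Zeb curves of the opening classes rise to about 10% at the middle (10.1% at the highest bin of isolated opening regions) while that of isolated closing regions dips, and the AP-1 curves all peak at the middle.

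The share with a Zeb match was higher where the deposited gain in accessibility was larger. In 4 classes of isolated opening regions by log2 fold change (1 to 1.19, 1.20 to 1.5, 1.51 to 1.97 and 1.98 to 4.88) it was 43.9%, 48.3%, 51.6% and 62.6%. These classes rest on the deposited values that define the opening list, so their shares are a description only. AP-1 matches went from 26.7% to 32.8% over the same classes and Ctcf matches from 2.16% down to 0.494%. By position, a Zeb match stood in 49.9% of isolated opening regions at starts, 58.9% in exons, 54.8% in introns and 49.5% between genes, against 22.9% of stable regions at starts and 24.7% of those between genes.

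AP-1 matches stood in 29.0% of isolated opening regions (27.8 to 30.2%), 25.6% of clustered opening, 27.5% of isolated closing and 22.2% of stable regions, and in 21.1% of all accessible regions. They were scarcer at starts (14.5%) than between genes (30.7%). Within the isolated opening regions, AP-1 stood in 33.5% of those with a Zeb match (31.8 to 35.3%) and in 24.1% of those without (22.5 to 25.8%). Joined matches such as CAGGTGACTCA, in which both motifs share bases, made up part of this. They stood in 75 isolated opening regions (1.33%) and in 1.37% of clustered opening regions, against 0.271% of stable and 0.215% of isolated closing regions. Without them AP-1 stood in 31.8% of isolated opening regions with a Zeb match (30.1 to 33.5%). In clustered opening regions AP-1 then stood in 27.0% of those with a Zeb match and 22.1% of those without. Counted the same way, the order was the other way in isolated closing regions, with AP-1 in 20.4% of those with a Zeb match and 28.2% of those without. In all, 17.3% of isolated opening regions held both motifs, 34.4% Zeb alone, 11.6% AP-1 alone and 36.7% neither.

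The remaining motifs were counted in the same windows. The Ctcf motif stood in 61 isolated opening regions (1.08%) and in 0.0956% of isolated closing but 4.45% of stable regions. The Grhl motif (AACCNGTT) stood in 81 (1.44%), against 1.05% and 1.26%, with intervals that overlap. The Runx motif (TGTGGT) stood in 13.5% of isolated opening, 12.7% of stable and 20.9% of isolated closing regions, although all 3 classes were free of Runx peaks. The Klf motif stood in 10.6% of isolated opening regions against 6.79% of isolated closing and 8.91% of stable regions, and the Ets motif (GGAAGT) in 16.0% against 11.9% and 15%. The Tead motif (GGAATG) stood in 15.4% against 14.3% and 12.4%. The Fox motif (GTAAACA) stood in 3.41% against 3.92% and 2.79%, and the Cebp motif (TTGCNNAA) in 6.62% against 10.7% and 7.25%. Strict Nfi, Hnf1, Nrf1 and p53 family motifs matched in at most 5 isolated opening regions each. All motifs were searched on both strands. Over all 55649 accessible regions Ctcf stood at 2.70%, Grhl at 1.29%, Runx at 16.2%, Klf at 9.64%, Ets at 14.6%, Tead at 12.9%, Fox at 2.84% and Cebp at 7.35%.

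The 10 isolated opening regions with the highest deposited gain, between 4.23 and 4.88 on the log2 scale, lay near genes that responded in different ways. The first was chr11:119211855-119212423, 569 bp in an intron of Sgsh, a lysosomal enzyme of heparan sulfate breakdown, with 1 Zeb and 1 AP-1 match (the Zeb 1 sequence). Sgsh RNA was at 2.4, 2.4 and 3.2 TPM in control, 25.1, 24.2 and 23.4 TPM in Runx1KO and 3.8, 3.4 and 3.4 TPM in ZebDKO libraries. It rose in Runx1KO cells by 2.79 on the log2(TPM+1) scale (SE 0.091, limma Benjamini-Hochberg adjusted p = 3.38e-07). The next was chr9:121324578-121325389, in an intron of Trak1, an adaptor for mitochondrial transport, whose RNA went from 6.8, 7.3 and 8.2 to 11.5, 11 and 10.9 TPM, a log2 fold change of 0.53 that is under the 2-fold limit. Fopnl, a centrosome protein gene with its start 2297 bp from chr16:14319765-14320212, went from 86.9, 93.2 and 77.0 to 172.4, 173.5 and 171.4 TPM, a log2 fold change of 1.005 (SE 0.065) that was 0.93, under the limit, without control replicate 3.

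Beside other strong openings no RNA passed the limit or the gene was at 0. The region chr5:93353874-93354565 lies at an internal start of Shroom3, a regulator of apical constriction, and Shroom3 stood at 22.5, 21.3 and 24.9 TPM in control and 19.6, 21.4 and 20.8 TPM in Runx1KO libraries, which overlap (log2 fold change -0.14, adjusted p = 0.0817). Sgip1 and Ntm, nearest to chr4:102506437-102506774 and chr9:29973826-29974386, were listed at 0 in all 9 libraries, and Rbp7 did not reach 1 TPM in any of them. Slc22a23, around chr13:34304472-34305311, had a log2 fold change of -0.25. RNA did rise at others. At the start of Prkcz, an atypical protein kinase C of cell polarity, chr4:154735025-154736059 held 2 Zeb matches. Prkcz went from 0.2, 0.1 and 0.1 to 2.1, 2.2 and 2.3 TPM (log2 fold change 1.5, limma adjusted p = 6.69e-06). It passed the filter of 1 TPM only through the Runx1KO libraries. Xlr3b, at chrX:70437213-70437688, went from 5.9, 4.4 and 4.8 to 63.6, 64.0 and 66.5 TPM, but it belongs to a family of near-identical copies among which reads may be split.

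RNA levels in the knockouts were read first for the targeted and binding factors. Runx1 stood at 18.7, 15.6 and 17.9 TPM in control, 30.3, 30.1 and 28.5 TPM in Runx1KO and 9.4, 10.5 and 10.4 TPM in ZebDKO libraries. A value per gene does not show which exons are present, so neither knockout label is checked by these levels. Zeb1 stood at 15.1, 14.2 and 15.6 TPM in control and fell to 0.1, 0.2 and 0.2 TPM in Runx1KO libraries (log2 fold change -3.78, SE 0.072, adjusted p = 2.78e-08), while ZebDKO libraries, which lack its exon, were at 16.8, 16.6 and 14.8 TPM. Zeb2 fell from 5.5, 4.9 and 5.2 TPM to 0.2 TPM in each Runx1KO library (log2 fold change -2.37) and was at 1.7, 1.8 and 1.6 TPM in ZebDKO libraries. Neither Zeb1 nor Zeb2 had an isolated opening region in its domain. Grhl2 rose from 0.1 TPM in each control library to 5.0, 5.0 and 4.9 TPM in Runx1KO libraries (log2 fold change 2.44, limma adjusted p = 2.07e-07). It passed the filter only through the Runx1KO libraries. In ZebDKO libraries it stood at 1.1, 1.4 and 0.9 TPM, did not pass the filter against control and was not tested. Its domain held 5 isolated opening regions and 8 other opening regions. The 9 libraries were alike in complexity, with 12541 to 12697 genes at 1 TPM or more and correlations of 0.994 to 0.995 within and 0.921 to 0.934 between genotypes. Defining nephron progenitor genes were only partly present: in control libraries Pax2 was at 310.2 to 315.7 TPM, Hoxa11 at 212.4 to 217.4 TPM, Osr1 at 64.1 to 70.9 TPM and Gdnf at 11.4 to 13.6 TPM, whereas Six2, Wt1, Cited1, Meox1, Hoxd11 and Robo2 stayed at or under 0.6 TPM.

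The next question was whether genes near the isolated opening regions changed. Each gene was given a domain from 5 kb before to 1 kb after its start, extended up to 1000 kb to the next domain, and 6370 genes had an isolated opening region in theirs. Of 4203 such genes tested, 520 (12.4%, 11.4 to 13.4%) were higher in Runx1KO cells by over 2-fold at an adjusted p under 0.05 and 205 (4.88%) were lower. Of all 11691 tested genes with a position, 7.72% were higher and 5.16% lower, and over all 13067 tested genes, placed or not, 7.91% and 5.10%. The median log2 fold change was 0.01 near isolated opening regions and -0.06 over the placed genes. A gene silent in control cells passes the filter on low values only through the group where it is high, so the count was also made on genes at 1 TPM or more in all 3 control libraries: 261 of 3878 (6.73%) were then higher and 205 (5.29%) lower, against 4.28% and 5.45% of the 11064 placed genes of that kind. In bulk RNA, fewer cells of a kind and less RNA per cell cannot be told apart.

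The share of higher genes differed with what else lay in the domain. Where isolated opening regions were the only opening regions, 330 of 3285 tested genes (10.0%, 9.06 to 11.1%) were higher and 165 (5.02%) lower. Among those at 1 TPM or more in all controls, 157 of 3067 (5.12%) were higher and 165 (5.38%) lower, near the background of 4.28% and 5.45%. With 1, 2 and 3 or more isolated regions, 10.3%, 9.46% and 9.44% of tested genes were higher, and 5.33%, 3.81% and 6.17% of those expressed in all controls. Where a clustered or Runx-bound opening region lay there too, 190 of 918 (20.7%) were higher, beside 187 of 895 (20.9%) where such regions lay alone, and 12.8% of the expressed genes were higher in either case. Of 6593 tested genes with no opening region, 195 (2.96%) were higher and 374 (5.67%) lower, and of the 6402 expressed in all controls 1.77% were higher and 5.84% lower. A closing region in the same domain went with fewer higher and more lower genes: among genes whose only opening regions were isolated ones, 13.5% were higher and 1.73% lower without a closing region (1680 genes), and 6.42% and 8.47% with one (1605 genes). On the expressed genes these shares were 6.44% and 1.91% without, and 3.82% and 8.80% with a closing region. By Zeb match in these regions, the share of higher genes was 9.19% (8.00 to 10.5%) with and 11.3% (9.73 to 13.2%) without a match, and 4.32% and 6.34% on the expressed genes.

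**Figure D3:**
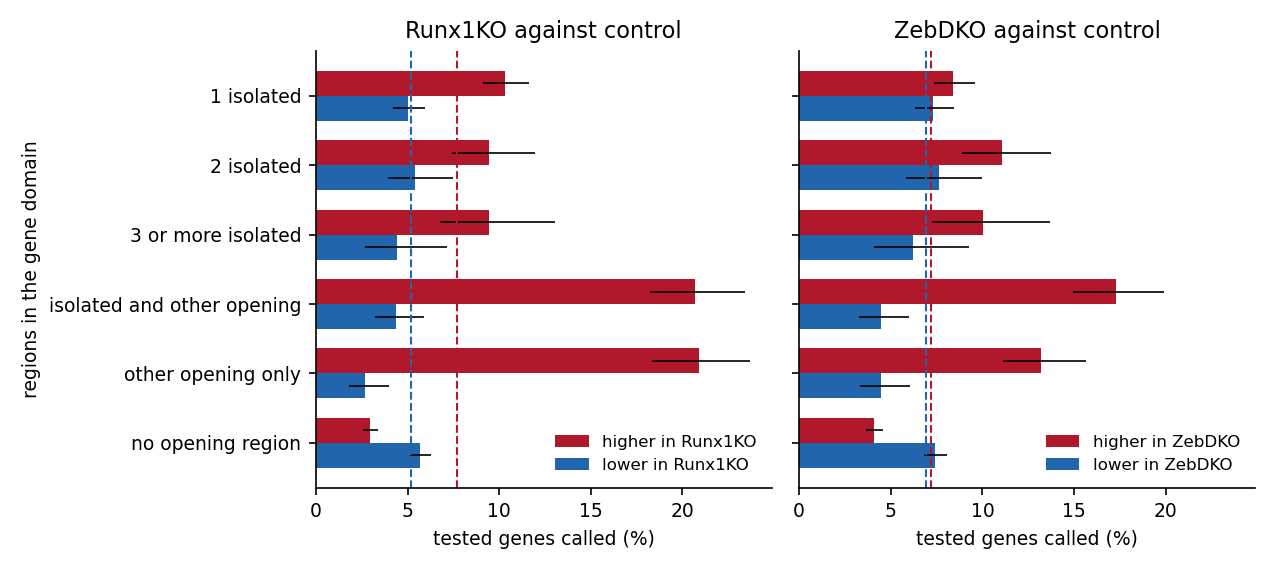
Share of tested genes called higher (red) or lower (blue) by over 2-fold (percent, x axis) in Runx1KO (left) and ZebDKO cells (right) by what opening regions lie in the gene's domain (y axis); black lines are Wilson 95% intervals and dashed lines the shares over all placed genes. Higher genes make up 9.44 to 10.3% in Runx1KO cells where only isolated regions lie in the domain, 20.7 and 20.9% where other opening regions lie there, and 2.96% where none does.

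The share of higher genes was largest at gene starts. Of 435 tested genes with an annotated start within 1 kb of an isolated opening region, 198 (45.5%, 40.9 to 50.2%) were higher in Runx1KO cells and 9 (2.07%) lower, with a median log2 fold change of 0.80. Among the 298 of them at 1 TPM or more in all controls, 77 (25.8%) were higher and 9 (3.02%) lower. At starts with a clustered opening region 58.5% of 272 genes were higher, at starts with a stable region 6.78% of 4086, and at starts with an isolated closing region 4.13% of 242 were higher and 42.6% lower. On genes expressed in all controls, 38.2% of 165 at clustered opening and 4.27% of 3907 at stable regions were higher. At isolated closing regions 2.15% of 233 such genes were higher and 44.2% lower. By Zeb match in the region at the start, 41.4% of 215 genes with one (35.0 to 48.1%) and 49.5% of 220 without (43.0 to 56.1%) were higher. Of those expressed in all controls, 19.3% of 145 with a match and 32.0% of 153 without were higher. By distance from region to nearest start, 45.8% were higher within 1 kb, 10.2% from 1 to 10 kb, 9.66% from 10 to 50 kb, 3.59% from 50 to 100 kb and 9.22% beyond 100 kb. The share of lower genes went from 2.14% to 13.5% over the same distances. These shares by distance include genes that passed the filter only through the Runx1KO libraries.

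**Figure D4:**
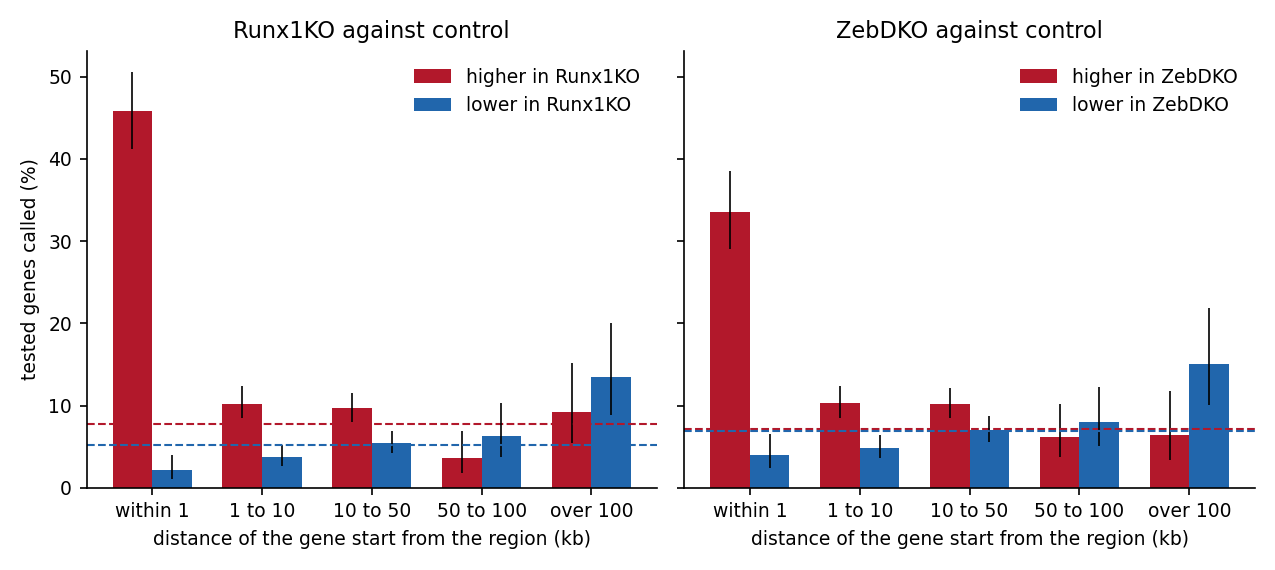
Share of tested genes called higher (red) or lower (blue) by over 2-fold (percent, y axis) by distance of the nearest gene start from the isolated opening region (kb, x axis), in Runx1KO (left) and ZebDKO cells (right); black lines are Wilson 95% intervals and dashed lines the shares over all placed genes. Within 1 kb, 45.8% of genes are higher in Runx1KO and 33.6% in ZebDKO cells, and from 1 to 50 kb 9.66 to 10.3%. Genes that passed the filter only through the knockout libraries are included.

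Among called genes with an isolated opening region at a start, the 10 with the largest change in Runx1KO cells were all higher. Their 3 Runx1KO libraries lay above all 3 control libraries, which follows from choosing the largest called changes. Psca, Tekt5, Car9, Prss35, Itgb4 and 2610528J11Rik were under 1 TPM in every control library and passed the filter only through the Runx1KO libraries. Psca (ENSMUSG00000022598, start at chr15:74545269, plus strand), a surface protein anchored by glycolipid, had the region chr15:74544993-74545299 over its start and no other opening region in its domain. Its RNA was at 0, 0.9 and 0.2 TPM in control and 92.4, 92.4 and 91.3 TPM in Runx1KO libraries (log2 fold change 6.14, SE 0.21, limma adjusted p = 4.59e-07). In ZebDKO libraries it was at 3.3, 2.8 and 2.2 TPM, a log2 fold change of 1.51 against control. Itgb4 (ENSMUSG00000020758, chr11:115836023, plus strand), the integrin chain of hemidesmosomes, went from 0.6, 0.5 and 0.5 TPM to 64.3, 60.0 and 61.3 TPM in Runx1KO and 32.4, 35.0 and 32.3 TPM in ZebDKO libraries, and its region chr11:115835954-115837233 was the only opening region in its domain. Lamb3 (ENSMUSG00000026639, chr1:195128151, plus strand), a chain of the epithelial laminin that binds this integrin, went from 1.9, 1.9 and 1.7 TPM to 101.4, 98.8 and 97.9 TPM in Runx1KO and 118.1, 109.6 and 107.4 TPM in ZebDKO libraries, with 2 other opening regions in its domain. The log2 fold changes in Runx1KO cells were 5.36 (SE 0.054) for Itgb4 and 5.15 (SE 0.046) for Lamb3. Each of these 3 start regions held 1 CAGGTG, on either strand, as the sequences above show.

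The other genes of this kind ranged widely in their level in ZebDKO cells. Tmem184a went from 1.1 to 1.5 TPM in control to 75.2 to 78.5 TPM in Runx1KO and 107.4 to 112.2 TPM in ZebDKO libraries, and its region, at an internal start, held 2 Zeb matches. Ucp2, a mitochondrial carrier, went from 4.3, 5.0 and 4.4 TPM to 230.1, 239.4 and 229.8 TPM in Runx1KO and 94.2, 97.2 and 100.9 TPM in ZebDKO libraries, with no Zeb match at its start. Tmc4 stood at 0.6 to 1.1 TPM in control, 60.3 to 66.3 TPM in Runx1KO and 13.0 to 13.6 TPM in ZebDKO libraries. Tekt5, a tektin of cilia and flagella, stood at 59.0 to 60.4 TPM in Runx1KO and 2.3 to 2.7 TPM in ZebDKO libraries. Car9, a membrane carbonic anhydrase, stood at 59.4 to 64.9 and 3.6 to 3.8 TPM, Prss35, a secreted protease-like protein, at 73.2 to 91.8 and 1.9 to 2.3 TPM, all 3 genes being at or under 0.8 TPM in control libraries. The transcript 2610528J11Rik was listed at 0 in every control library and stood at 36.2 to 38.2 TPM in Runx1KO and 4.5 to 8.7 TPM in ZebDKO libraries. In ZebDKO against control the log2 fold change was 2.95 for both Tmc4 and 2610528J11Rik, 1.97 for Car9 and 1.64 for Tekt5. These were called higher, while Prss35, at 0.85, was under the limit. All of them were low in control and passed the filter there only through the ZebDKO libraries. The start regions of Tekt5 and 2610528J11Rik held 2 and 3 Zeb matches and those of Car9 and Prss35 none.

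**Figure D5:**
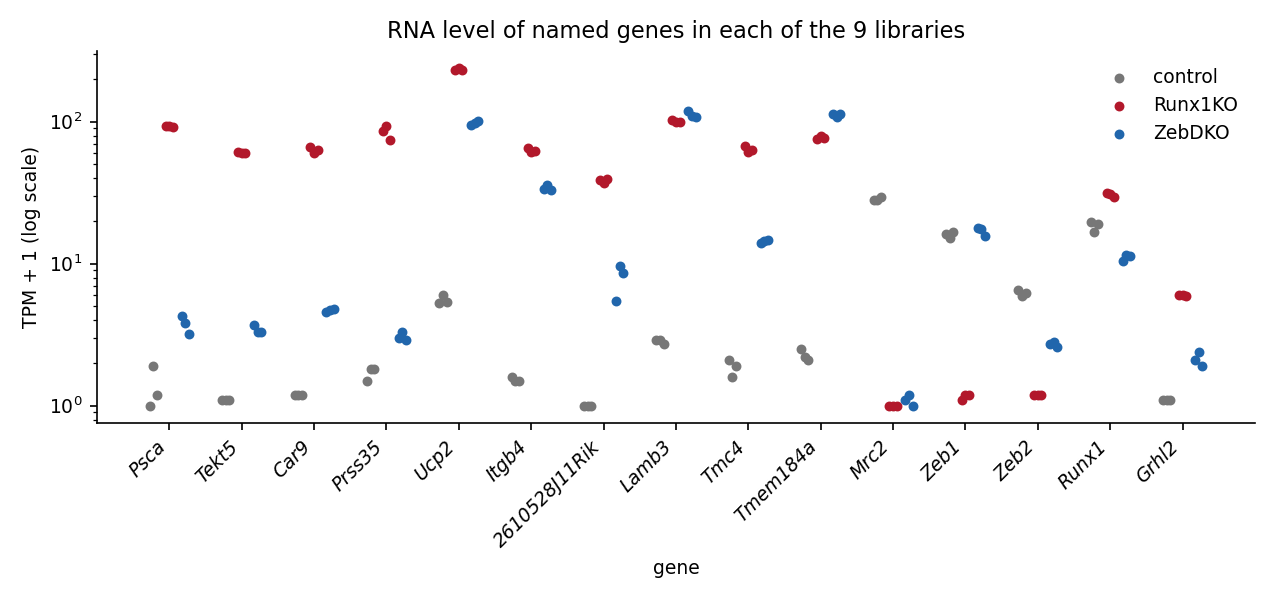
RNA level (TPM + 1, log axis) in each of the 3 control, 3 Runx1KO and 3 ZebDKO libraries for the 10 genes with an isolated opening region at a start and the largest change, for Mrc2, and for Zeb1, Zeb2, Runx1 and Grhl2 (x axis); each point is 1 library. The 10 start genes were chosen for a large change in Runx1KO cells, so all their Runx1KO libraries lie above any control library. Their ZebDKO libraries range from near control (Prss35, 1.9 to 2.3 TPM) to above Runx1KO (Tmem184a, 107.4 to 112.2 TPM).

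Krt8, Mal and A630095E13Rik were among the 10 genes with the largest rise and had their isolated opening region farther from the start. Krt8, a keratin of simple epithelia, went from 1.8, 1.9 and 3.6 TPM in control to 2302, 2394 and 2362 TPM in Runx1KO and 1087, 1026 and 1038 TPM in ZebDKO libraries (log2 fold change 9.46 in Runx1KO cells, SE 0.18). Its isolated region lay 23090 bp away and 3 other opening regions shared the domain, and reads from its retrocopies may be counted with it. Mal, a protein of apical membrane traffic, went from 0.1 TPM in each control library to 163.9 to 168.8 TPM in Runx1KO libraries, with 2 isolated and 5 other opening regions. The transcript A630095E13Rik, with chr9:36450637-36451358 as the only opening region of its domain, 4450 bp from its start, went from 0, 0.3 and 0 TPM to 57.8 to 66.3 TPM in Runx1KO and 85.0 to 92.5 TPM in ZebDKO libraries. Its region held no Zeb match. Both Mal and A630095E13Rik passed the filter only through the Runx1KO libraries.

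Some genes fell although a region beside them opened. Tmsb4x, which encodes an actin-binding peptide, was at 111.8, 134.4 and 128.7 TPM in control and 0.3, 0 and 0 TPM in Runx1KO libraries, with chrX:163667808-163668061 the only changed region in its domain at 20561 bp from its start. Its retrocopies make this value uncertain. Igfbp4, a binding protein of insulin-like growth factors, fell from 63.3, 67.4 and 66.7 TPM to 0.6, 0.3 and 0.6 TPM in Runx1KO libraries (log2 fold change -5.48), with 1 isolated opening and 3 closing regions in its domain. Mrc2, a collagen receptor, was at 27.3, 26.9 and 28.7 TPM in control, was listed at 0 in every Runx1KO library and was at or under 0.2 TPM in ZebDKO libraries. It had an isolated opening region 979 bp from an internal start and 2 closing regions. Itga9, an integrin chain, fell from 17.0, 15.4 and 17.7 TPM to 0.1, 0.1 and 0.2 TPM with 1 isolated opening, 2 other opening and 9 closing regions. Slc14a1, a urea transporter, fell from 82.8 to 88.4 TPM in control to 5.7 to 6.2 TPM in Runx1KO and 0.4 to 0.6 TPM in ZebDKO libraries.

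The same genes were read in ZebDKO cells, a comparison that shares its 3 control libraries with that of Runx1KO cells. Of 4137 tested genes with an isolated opening region in the domain, 450 (10.9%, 9.96 to 11.9%) were higher in ZebDKO cells and 275 (6.65%) lower (6.68% and 7.09% of the 3878 expressed in all controls, against a background of 4.21% and 7.28%), against 7.19% and 6.92% of all 11635 placed genes and 7.48% and 7.27% of all 12974 tested genes. At starts within 1 kb, 127 of 383 (33.2%, 28.6 to 38.0%) were higher and 15 (3.92%) lower, and the share was 32.8% with and 33.5% without a Zeb match in the region. On the 298 start genes expressed in all controls, 57 (19.1%) were higher and 15 (5.03%) lower. Of these, 15.2% of 145 with a Zeb match and 22.9% of 153 without were higher. Where isolated regions were the only opening regions, 9.10% were higher and 7.25% lower, but on genes expressed in all controls the order turned, with 5.61% of 3067 higher and 7.66% lower. The median over all tested genes was -0.18 on the log2 scale in ZebDKO cells. Scaling libraries by their median ratio moved that to -0.0014 and the calls over all genes from 971 higher and 943 lower to 1181 higher and 665 lower, so directions in ZebDKO cells are relative to that shift. Under that scaling 12.6% of genes near isolated opening regions were higher and 4.74% lower.

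The knockouts were also compared with each other directly. Of 4227 tested genes with an isolated opening region in the domain, 479 (11.3%) were higher and 301 (7.12%) lower in Runx1KO than in ZebDKO cells, against 8.73% and 6.42% of all 11712 placed genes and 9.2% and 6.59% of all 13071 tested genes. Among genes at 1 TPM or more in all 3 control libraries the shares were 8.56% and 5.94% of 3822, against 6.95% and 5.13% of the 10875 placed genes of that kind. With median-ratio scaling the shares near isolated opening regions were 8.99% higher and 8.45% lower. That scaling moved the median over all tested genes from 0.15 to 0.0007 on the log2 scale. The shares over all genes under it are not given, so these shares have no background here. At starts within 1 kb, 107 of 437 (24.5%, 20.7 to 28.7%) were higher and 24 (5.49%) lower in Runx1KO cells. Of the 296 expressed in all controls, 39 (13.2%) were higher and 16 (5.41%) lower. Psca was higher in Runx1KO than in ZebDKO cells by 4.64 on the log2 scale (SE 0.10), Prss35 by 4.78, Tekt5 by 4.15 and Car9 by 3.75. Lamb3 and Tmem184a lay on the other side, with differences of -0.17 (SE 0.041, adjusted p = 0.00664) and -0.53 (SE 0.032), both under 2-fold.

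Gene lists of epithelial, mesenchymal and progenitor states were then counted, against the 7.91% of all tested genes that were higher and 5.1% that were lower in Runx1KO cells. Of the 30 keratin and epithelial surface genes, 21 had an isolated opening region in the domain and 12 of those could be tested. Of the 12, 11 rose and none fell, but some of them, such as Krt19, Itgb4 and Prom1, passed the filter only through the knockout libraries. Of the 8 at 1 TPM or more in all controls 7 rose and none fell, with a median log2 fold change of 1.96. In the whole list 17 of 20 tested genes rose, and 10 of the 13 expressed in controls. Krt19 rose from 0.6, 0.6 and 0.8 TPM to 87.0, 87.5 and 86.6 TPM, against 5.0, 4.4 and 4.2 TPM in ZebDKO libraries, and Prom1, a surface protein with an isolated region at its start, from 0.1 TPM in each control library to 9.3 to 10.1 TPM. Of the 28 epithelial junction and polarity genes, 14 had such a region and 6 were tested: Pard6b, Patj, Ocln and Tjp3 rose, Cldn1 fell and Cdh3 did not pass. Pard6b, a core polarity protein, went from 25.7, 23.4 and 24.0 TPM to 194, 183.2 and 197.1 TPM with 3 isolated and 4 other opening regions, and Patj from 3.3 to 3.9 TPM to 20.9 to 21.4 TPM with its only opening region over the start. Cldn1, a tight junction claudin, had 5 isolated opening regions and went from 44.7, 40.0 and 41.3 TPM to 21.2, 18.4 and 19.7 TPM (log2 fold change -1.05), and its change was under 2-fold with median-ratio scaling (-0.99). In the whole junction list 14 of 17 tested genes rose and 1 fell, and 8 and 1 of the 11 expressed in controls, 5 of which had an isolated opening region (3 rose, 1 fell).

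Of 30 mesenchymal genes, 12 had an isolated opening region, 9 were tested, none rose and 4 fell, beside 12 of 21 falling in the whole list. The falling ones were Col5a2 (148.1 to 149.9 TPM in control, 13.2 to 15.3 TPM in Runx1KO libraries), Dcn, Fn1 and Twist2, a collagen chain, a matrix proteoglycan, fibronectin and a transcription factor, and they had 2 to 6 closing regions in their domains beside 1 to 3 isolated opening ones. In ZebDKO libraries Col5a2 stayed at 149.3 to 158.3 TPM and Fn1 went up from 48.8 to 55.4 TPM to 92.0 to 105.6 TPM, a log2 fold change of 0.87 that is under the limit. Dcn fell in ZebDKO cells too, from 6.9, 6.6 and 8.9 TPM to 1.3, 2.1 and 1.6 TPM (log2 fold change -1.67), and Twist2 and Cdh2 had log2 fold changes of -0.68 and -0.54 there. Of 64 genes for factors that bind the counted motifs, 44 had an isolated opening region and 38 were tested, of which 10 rose and none fell, and of the 35 expressed in controls 7 rose. In the whole list 12 of 56 tested genes rose and 4 fell, and 9 rose and 4 fell of the 53 expressed in controls. Besides Grhl2, which passed the filter only through the Runx1KO libraries, the higher genes with such a region included Klf2 (70.3 to 79.3 TPM in control, 365.1 to 386.3 TPM in Runx1KO libraries). Others were Elf3, an epithelial Ets factor (30.0 to 35.3 and 118.9 to 123.4 TPM), and the AP-1 family genes Fos (400.1 to 421.7 and 1467 to 1549 TPM) and Atf3 (428.5 to 457.9 and 1156 to 1224 TPM). Of 20 nephron progenitor genes, 8 had an isolated opening region and 7 were tested, of which none rose and 2 fell (median log2 fold change 0.21). In the whole list none of 12 tested genes rose and 3 fell. Osr1 fell from 64.1 to 70.9 TPM to 0.3 to 0.5 TPM with 26 closing regions in its domain, Eya1 fell from 15.9 to 16.6 TPM to 5.4 to 6.1 TPM, and Pax2, with 4 isolated opening regions, had a log2 fold change of 0.58 that is under the limit. Wnt4, Sall1 and Pax8 had log2 fold changes of 0.65, 0.33 and 0.21, also under the limit.

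Lists for antigen presentation and other kinds of cell had few such regions. Of 22 interferon and antigen presentation genes 3 had an isolated opening region, and Ifit1 was the 1 called higher (0.1, 0 and 0.4 TPM in control, 1.0, 1.5 and 1.6 TPM in Runx1KO libraries), with a log2 fold change of 1.03. It passed the filter only through the Runx1KO libraries. Its change was under 2-fold with quantile normalization (0.90), without control replicate 1 (0.99) or 2 (0.92), and, over the genes of the full comparison, without Runx1KO replicate 2 (0.98) or 3 (0.95). In the whole list 5 of 20 tested genes rose and 1 fell. Of 6 endothelial markers only Cdh5 was tested. It had 2 isolated opening regions and fell from 4.0, 2.8 and 4.4 TPM to 1.2, 1.2 and 1.0 TPM, a change under 2-fold (-0.85) in the separate table of 6 libraries. The summed level of the endothelial list was 2.9 to 4.6 TPM in control and 1.0 to 1.4 TPM in Runx1KO libraries. The 8 blood markers summed to 137.7 to 140.4 TPM in control, 124.8 to 129.1 TPM in Runx1KO and 92.2 to 102.3 TPM in ZebDKO libraries with Ptprc, the marker of white blood cells, and the globin gene Hbb-bs at 0 in all 9. The part of endothelial or blood RNA in the other results was not tested.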

How the data were processed

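RNA-seq (3 control, 3 Runx1KO and 3 ZebDKO libraries), ATAC-seq and ChIP-seq of mK4 cells were used as deposited on mm9. The authors gave RNA as TPM per gene rounded to 1 decimal, so read depth is unknown. The ATAC lists deposited by the authors hold a log2 fold change and an unlabelled −log10 value per region, and the peak lists deposited by the authors hold a fold enrichment ratio and −log10 p and q values, all without values per replicate. The submitters' processing notes name Trim Galore, FastQC, featureCounts 1.6.2, MACS2 and DESeq2 1.26.0. The authors' fold changes were used only to describe the regions. No column of per-sample values was left out.

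Regions were classed and placed with GENCODE vM1 (mm9), and motifs counted in the central 200 bp on both strands (Python 3.11.15, pysam 0.24.0, scipy 1.17.1). Genes at 1 TPM or more in at least 3 libraries were tested on log2(TPM + 1), a pseudocount that understates the change of low genes, with limma 3.58.1 (R 4.3.3), each comparison on its 6 libraries, and called at a Benjamini-Hochberg adjusted p under 0.05 and a change over 2-fold. A position was found for 18673 genes by symbol and 1678 by another symbol, of 24953. The scripts were tested on simulated data. The regions, gene lists, tests and rules were chosen with earlier results of these data known. Named genes were the 10 highest and 5 lowest called genes nearest to an isolated opening region within 100 kb, the 10 largest changes at starts, up to 5 per list, the genes of the 10 strongest regions, and the factors Runx1, Runx2, Zeb1, Zeb2 and Grhl2. Alternatives covered scaling, pseudocount, filter, fold limit, region rules, motif window and leaving out each library.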

Additional observations from a re-analysis of the deposited data

Results flagged for a closer look

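Tmsb4x, with an isolated opening region 20561 bp from its start, moved in opposite directions in the knockouts: it was at 111.8, 134.4 and 128.7 TPM in control, 0.3, 0 and 0 TPM in Runx1KO and 641.9, 642.0 and 635.9 TPM in ZebDKO libraries. Runx1KO minus ZebDKO was -9.2 on the log2(TPM + 1) scale (SE 0.10), tested directly with limma (adjusted p = 8.48e-09). Both knockouts share the control libraries, and the size depends on the pseudocount because Runx1KO libraries are near 0.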

How the results depend on the processing

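No called log2 fold change of a named gene changed sign, but the balance of higher and lower genes turned under some alternatives. In Runx1KO cells 1033 higher and 666 lower genes became 618 and 674 without Runx1KO replicate 1, 625 and 662 without replicate 2 and 615 and 681 without replicate 3. In ZebDKO cells 971 and 943 became 1143 and 1332 with a pseudocount of 0.1, 1072 and 1163 with 0.5 and 665 and 727 with a filter of 5 TPM, and 627 to 631 higher and 932 to 992 lower without any 1 ZebDKO replicate. With the genes of the full comparison they became 967 and 993 without ZebDKO replicate 2 and 961 and 962 without control replicate 2. Of 45 named called genes under 21 alternatives each, 906 calls stayed past the limits, 11 did not, and 28 were left out by the filter. A filter of 5 TPM gave 442 lower genes in Runx1KO cells. The balance also turned, except near isolated opening regions in Runx1KO cells and in the direct comparison, with a fold limit of 1.3, which gave 2413 higher and 2444 lower genes in Runx1KO cells (26.15% and 17.58% near isolated opening regions), 2244 and 4502 in ZebDKO cells (21.51% and 32.85%), and 37.24% and 17.98% in the direct comparison. For the direct comparison, no share over all genes is given under any alternative. Genes with a start within 20 kb gave 3.074% lower in Runx1KO cells, and within 1 kb 45.52% higher and 2.069% lower, 33.16% and 3.916% in ZebDKO cells and 24.49% higher in the direct comparison. Requiring a deposited log2 fold change of 1.5 left 2879 regions, 11.25% at starts, with Zeb at 57.03%, AP-1 30.71%, Ctcf 0.6252% and Klf 11.53%. Over the whole region Zeb stood at 79.23%, AP-1 45.33%, Grhl 4.304%, Ctcf 2.223%, Runx 33.4% and Klf 24.26%, and in the central 100 bp at 31.44%, 18.37%, 0.7291%, 0.6758%, 6.847% and 5.94%. Below and above the median GC content Zeb stood at 49.61% and 53.75%, AP-1 at 35.21% and 22.73%, Grhl at 1.885% and 0.9961% and Klf at 6.863% and 14.41%.

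Leaving out 1 library gave 615 to 1041 higher and 375 to 681 lower genes in Runx1KO cells (7.56 to 12.84% and 2.886 to 5.2% near isolated opening regions), 627 to 981 and 790 to 993 in ZebDKO cells (7.186 to 11.12% and 5.433 to 7.134%), and 9.357 to 12.11% and 4.763 to 7.462% in the direct comparison. The low ends come from the filter, which still asked for 3 libraries at 1 TPM and so dropped genes near 0 in the other group. With the genes of the full comparison, an alternative chosen after seeing the data, the ranges were 1018 to 1041 and 660 to 681 (12.4 to 12.49% and 4.735 to 4.973%), and 961 to 981 and 930 to 993 (10.59 to 10.88% and 6.43 to 6.841%). With a replicate block, 1039 genes were higher and 669 lower in Runx1KO cells (12.37% and 4.878%), 976 and 944 in ZebDKO cells (10.88% and 6.647%), and 11.33% and 7.121% in the direct comparison. Same-numbered libraries did not deviate together (correlations -0.0683 to -0.001), so the numbers do not pair them. TPM carries no depth, and the lists carry no replicate values, so no error can be given for the gain of a single region.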

Other observations

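Among the 2080 words of 6 letters counted in the central 200 bp, CAGGTG had the largest excess in isolated opening over isolated closing regions (29.9 percentage points) and CAGGTA ranked 5, a comparison chosen after the motif values were seen. The neighbouring words CAGGTC and CAGGTT stood in 17.3% and 15.3% of isolated opening, 10.6% and 8.70% of isolated closing and 13.5% and 12% of stable regions.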
